A study of Mus musculus with 16 samples.

Results

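The genes described are the proteasome genes of mouse regulatory T cells (Tregs), which carry the factor Foxp3 and hold immune responses in check. They are the 50 gene names that begin with Psm, a letter from a to g and a number, of 19195 genes measured. RNA was sequenced in 16 libraries of about 100 Tregs each, in 4 groups of 4 libraries. The groups are injured heart CCR8+, injured heart CCR8-, mediastinal lymph node (MLN) CCR8+ and MLN CCR8-. All 4 groups came from Foxp3-GFP reporter mice, 8 weeks old, 7 days after myocardial infarction (MI). The MLN drains the chest, and CCR8 is a chemokine receptor known from Tregs that live in tissues. The heart of an uninjured mouse is not among the groups. The cells were sorted by magnetic beads and by flow cytometry, and whether each library is from a mouse of its own is not stated in the sources used here, so that p-values measure the spread between libraries only.

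The proteasome degrades proteins that carry ubiquitin chains. Its 20S core is a barrel whose outer rings are built from alpha subunits and whose inner rings are built from beta subunits, and the beta1, beta2 and beta5 positions do the cutting. The constitutive catalytic subunits are Psmb6 (beta1), Psmb7 (beta2) and Psmb5 (beta5). Interferon gamma induces Psmb9, Psmb10 and Psmb8, which take these places in newly assembled cores and make the immunoproteasome, and lymphocytes carry much of it without added interferon. The 19S particle recognises and unfolds substrates, with a ring of Psmc ATPases and a set of Psmd subunits. Psme1 and Psme2 form the PA28 activator, which is also induced by interferon gamma. The immunoproteasome is known for cutting peptides that MHC class I molecules present, after transport by Tap1 and Tap2.

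By role, the 50 names comprise 7 alpha subunits, 7 constitutive beta subunits, 3 inducible beta subunits, 6 Psmc ATPases and 11 Psmd subunits of the 19S particle. The chaperones are 3 for the 19S base (Psmd5, Psmd9 and Psmd10) and 4 for the 20S core (Psmg1 to Psmg4). The rest are Psme1 and Psme2, the activators Psme3 and Psme4, the inhibitor Psmf1, the testis form Psma8, the thymic form Psmb11, Psme2b and Psmc3ip. Psmc3ip works in meiotic recombination and is not a proteasome subunit. Psme2b is a near copy of Psme2, with 789 of 794 aligned transcript bases identical, so reads of Psme2 and Psme2b could have been split between them. Values are log2(FPKM + 1), where FPKM is a fragment count scaled for transcript length and library size, and every difference below is on that log2 scale.

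The genes of the immunoproteasome lie in few places of the genome (build GRCm38, GENCODE vM21 annotation). Psmb9 (chr17:34181987-34187764, minus strand) and Psmb8 (chr17:34197721-34201454, plus strand) lie within the MHC, on either side of Tap1. The annotations of Psmb9 and Tap1 overlap by 212 bases on opposite strands, and the sources used here do not say whether reads were counted by strand. Psmb10 lies at chr8:105935735-105938444, Psmb5 at chr14:54614119-54618022, Psmb6 at chr11:70525367-70527858 and Psmb7 at chr2:38588036-38644087. The windows from 250 bases before to 50 bases after the RefSeq start site (GRCm38.p6) are printed for the inducible subunits, which differed between the groups, and for Psmb5 and Psmb6, their constitutive partners. The table had such a window for 42 of the 50 names and none for Psmb7. Capitals mark matches, on either strand, to 5 motifs: the interferon-stimulated response element core (GAAA, NN and GAAA in a row), the gamma-activated site TTCNNNGAA, a kappa B form (GGG, NN and TTTCC in a row), the antioxidant response element core TGACNNNGC and the CCAAT box.
Psmb9 (chr17:34187281-34187580, minus strand): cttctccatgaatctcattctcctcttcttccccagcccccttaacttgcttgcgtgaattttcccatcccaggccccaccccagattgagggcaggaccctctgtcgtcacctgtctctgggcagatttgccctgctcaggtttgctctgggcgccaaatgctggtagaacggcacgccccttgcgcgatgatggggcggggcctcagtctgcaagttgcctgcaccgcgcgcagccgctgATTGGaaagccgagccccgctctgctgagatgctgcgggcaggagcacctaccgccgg
Psmb10 (chr8:105938343-105938642, minus strand): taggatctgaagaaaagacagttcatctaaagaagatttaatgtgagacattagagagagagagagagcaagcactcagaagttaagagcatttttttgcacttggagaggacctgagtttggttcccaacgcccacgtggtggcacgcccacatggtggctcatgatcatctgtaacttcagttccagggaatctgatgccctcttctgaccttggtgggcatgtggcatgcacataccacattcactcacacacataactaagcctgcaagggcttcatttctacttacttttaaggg
Psmb8 (chr17:34197945-34198244, plus strand): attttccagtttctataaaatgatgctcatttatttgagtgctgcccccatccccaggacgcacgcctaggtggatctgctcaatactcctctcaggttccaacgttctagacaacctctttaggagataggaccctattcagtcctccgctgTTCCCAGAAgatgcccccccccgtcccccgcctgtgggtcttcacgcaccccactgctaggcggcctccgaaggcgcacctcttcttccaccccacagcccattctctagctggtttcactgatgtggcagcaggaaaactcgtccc
Psmb6 (chr11:70525107-70525406, plus strand): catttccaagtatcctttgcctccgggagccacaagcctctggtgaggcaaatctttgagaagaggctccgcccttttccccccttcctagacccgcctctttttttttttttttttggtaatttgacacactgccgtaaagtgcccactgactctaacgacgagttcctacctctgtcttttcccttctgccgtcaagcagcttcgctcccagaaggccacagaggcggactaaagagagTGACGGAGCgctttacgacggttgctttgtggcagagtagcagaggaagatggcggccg
Psmb5 (chr14:54617946-54618245, minus strand): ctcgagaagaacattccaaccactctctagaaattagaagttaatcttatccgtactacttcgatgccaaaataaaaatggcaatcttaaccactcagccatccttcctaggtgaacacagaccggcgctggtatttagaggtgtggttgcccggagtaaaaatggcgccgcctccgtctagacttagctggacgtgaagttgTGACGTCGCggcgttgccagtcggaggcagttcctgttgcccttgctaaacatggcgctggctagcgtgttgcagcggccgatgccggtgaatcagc

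The window of Psmb8 held a gamma-activated site, TTCCCAGAA, 97 to 89 bases before the start site. This pattern was in 8.30% of all 32851 windows and in 3 of 45 windows of proteasome genes (Psmb8, Psmd2 and Psmg1). Psmb5 and Psmb6 each held the antioxidant response core, as TGACGTCGC and TGACGGAGC, a pattern in 12.4% of all windows and in 6 of these 45. The interferon-stimulated core was in 5 of the 45 windows, Psme1 among them, and in 3.44% of all windows, while the kappa B form was in 0 of the 45 and in 1.63% of all. A CCAAT box was in 15 of the 45, Psmb9 among them, and in 37.4% of all. None of the 5 patterns was in the Psmb10 window. The Psmb9 window shares 275 bases with that of Tap1, whose start site lies 226 bases away in the opposite direction. A match is a run of letters and not a shown binding site, and a window without one says nothing about the factor.

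All 10 general T cell markers and all 5 Treg markers (Foxp3, Il2ra, Ctla4, Ikzf2 and Tnfrsf18) were above 0 in every library. The mean of Ccr8 was 10.01 ± 0.30 for heart CCR8+, 8.45 ± 0.24 for heart CCR8-, 7.78 ± 0.40 for MLN CCR8+ and 4.60 ± 0.66 for MLN CCR8- libraries (SD, n = 4 each). Within each tissue every CCR8+ library had more Ccr8 than every CCR8- library. Across tissues the order went against the labels, as all heart CCR8- libraries (8.20 to 8.73) had more Ccr8 than all MLN CCR8+ libraries (7.39 to 8.18). The heart libraries also carried RNA of other cells. Mean levels of 7 fibroblast markers ran from 0.75 to 3.97 in heart CCR8+ and from 2.87 to 4.39 in heart CCR8- libraries, against at most 0.42 for MLN CCR8+ and 0.45 for MLN CCR8-. The mean of 8 macrophage markers ran from 0.47 to 6.54 over heart CCR8+ libraries, and replicate 3 of heart CCR8- stood apart in 6 endothelial markers (7.01).

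Transcripts of the 20S core were among the most abundant in these cells. The median level was 8.70 for the alpha subunits, 8.87 for the constitutive beta subunits and 8.67 for the inducible ones, against 7.21 for the 19S ATPases and 6.26 for the other 19S subunits. Psmb8 averaged 9.63 over the 16 libraries and stood at percentile 99.0 of all genes. Abundance went with precision: the median SD within groups was 0.25 for alpha, 0.22 for constitutive beta and 0.27 for inducible subunits, but 0.54 for the non-ATPase 19S subunits and 0.72 for the 20S chaperones. Psma8 reached an FPKM of 1 in 0 libraries and Psmb11 in 2, and neither was tested. The other 48 were tested with limma among 10369 genes that had an FPKM of at least 1 in at least 4 libraries. In bulk RNA, fewer cells that express a gene and less RNA per cell cannot be told apart.

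**Figure D1:**
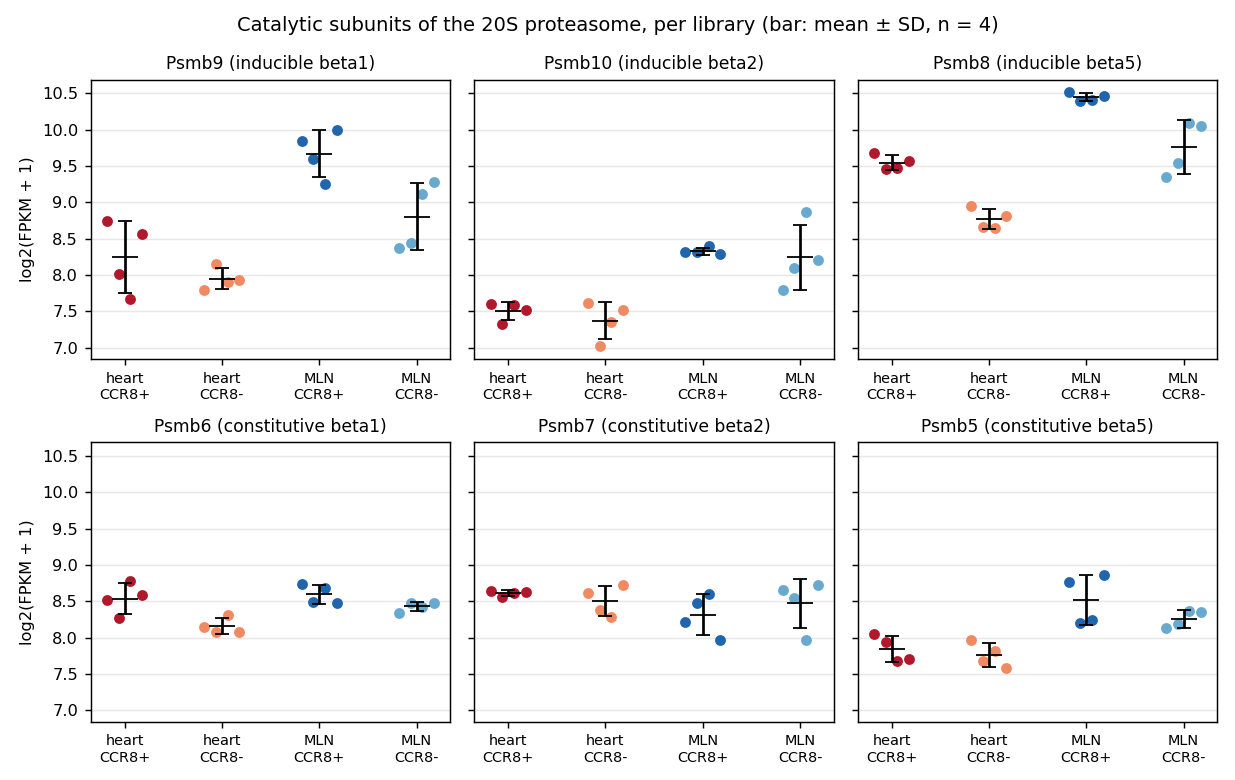
Levels of the catalytic subunits as log2(FPKM + 1), with 1 point per library and the mean ± SD of 4 libraries per group. Top row: inducible subunits; bottom row: constitutive partners. Psmb8 of heart CCR8+ libraries lies above that of heart CCR8- and below that of MLN CCR8+ libraries, while the 4 groups overlap for Psmb7.

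Psmb8, the inducible beta5 subunit, was the proteasome gene that passed the test in all 4 comparisons of 2 groups. It read 9.68, 9.46, 9.47 and 9.57 for heart CCR8+ libraries, 8.94, 8.66, 8.65 and 8.81 for heart CCR8-, 10.51, 10.39, 10.41 and 10.46 for MLN CCR8+, and 9.35, 9.54, 10.09 and 10.05 for MLN CCR8-. In each tissue all CCR8+ libraries lay above all CCR8- libraries, and in each CCR8 class all heart libraries lay below all MLN libraries. Heart CCR8+ and MLN CCR8- libraries, neighbours in the order of levels, overlapped.

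Psmb9, the inducible beta1 subunit, read 8.74, 8.01, 7.68 and 8.57 for heart CCR8+, 7.80, 8.14, 7.91 and 7.94 for heart CCR8-, 9.84, 9.59, 9.25 and 9.99 for MLN CCR8+, and 8.38, 8.45, 9.12 and 9.27 for MLN CCR8- libraries. Heart libraries lay below MLN libraries of the same CCR8 class, while CCR8+ and CCR8- overlapped in both tissues. Psmb10, the inducible beta2 subunit, read 7.60, 7.33, 7.59 and 7.52 for heart CCR8+, 7.61, 7.02, 7.35 and 7.51 for heart CCR8-, 8.32, 8.31, 8.40 and 8.29 for MLN CCR8+, and 7.79, 8.10, 8.86 and 8.21 for MLN CCR8- libraries. Every heart library was below every MLN library of either class for Psmb10, and CCR8 did not separate the groups.

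The constitutive partners varied less. Psmb5 read 8.05, 7.94, 7.68 and 7.70 for heart CCR8+, 7.97, 7.68, 7.82 and 7.59 for heart CCR8-, 8.76, 8.21, 8.25 and 8.87 for MLN CCR8+, and 8.13, 8.18, 8.36 and 8.35 for MLN CCR8- libraries, so that it too was below MLN in every heart library. Psmb6 read 8.51, 8.27, 8.78 and 8.59 for heart CCR8+, 8.15, 8.08, 8.31 and 8.08 for heart CCR8-, 8.74, 8.49, 8.68 and 8.48 for MLN CCR8+, and 8.33, 8.48, 8.42 and 8.48 for MLN CCR8- libraries. Psmb7 read 8.65, 8.56, 8.62 and 8.63 for heart CCR8+, 8.62, 8.38, 8.28 and 8.72 for heart CCR8-, 8.22, 8.48, 8.60 and 7.97 for MLN CCR8+, and 8.65, 8.54, 7.97 and 8.72 for MLN CCR8- libraries. For Psmb6 the heart CCR8- libraries were the low ones, and for Psmb7 all groups overlapped.

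Psme1, the alpha subunit of PA28, read 9.58, 9.28, 9.58 and 9.66 for heart CCR8+, 9.40, 8.49, 8.72 and 8.98 for heart CCR8-, 10.02, 10.22, 9.81 and 10.35 for MLN CCR8+, and 9.16, 9.49, 9.56 and 9.81 for MLN CCR8- libraries. Psme2, its beta subunit, read 10.18, 10.54, 10.39 and 9.82 for heart CCR8+, 9.56, 9.85, 9.37 and 9.87 for heart CCR8-, 10.31, 10.13, 10.18 and 10.09 for MLN CCR8+, and 9.70, 9.79, 10.46 and 10.67 for MLN CCR8- libraries. Heart CCR8+ libraries lay below MLN CCR8+ libraries for Psme1, and for Psme2 the groups overlapped in all 4 comparisons.

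**Figure D2:**
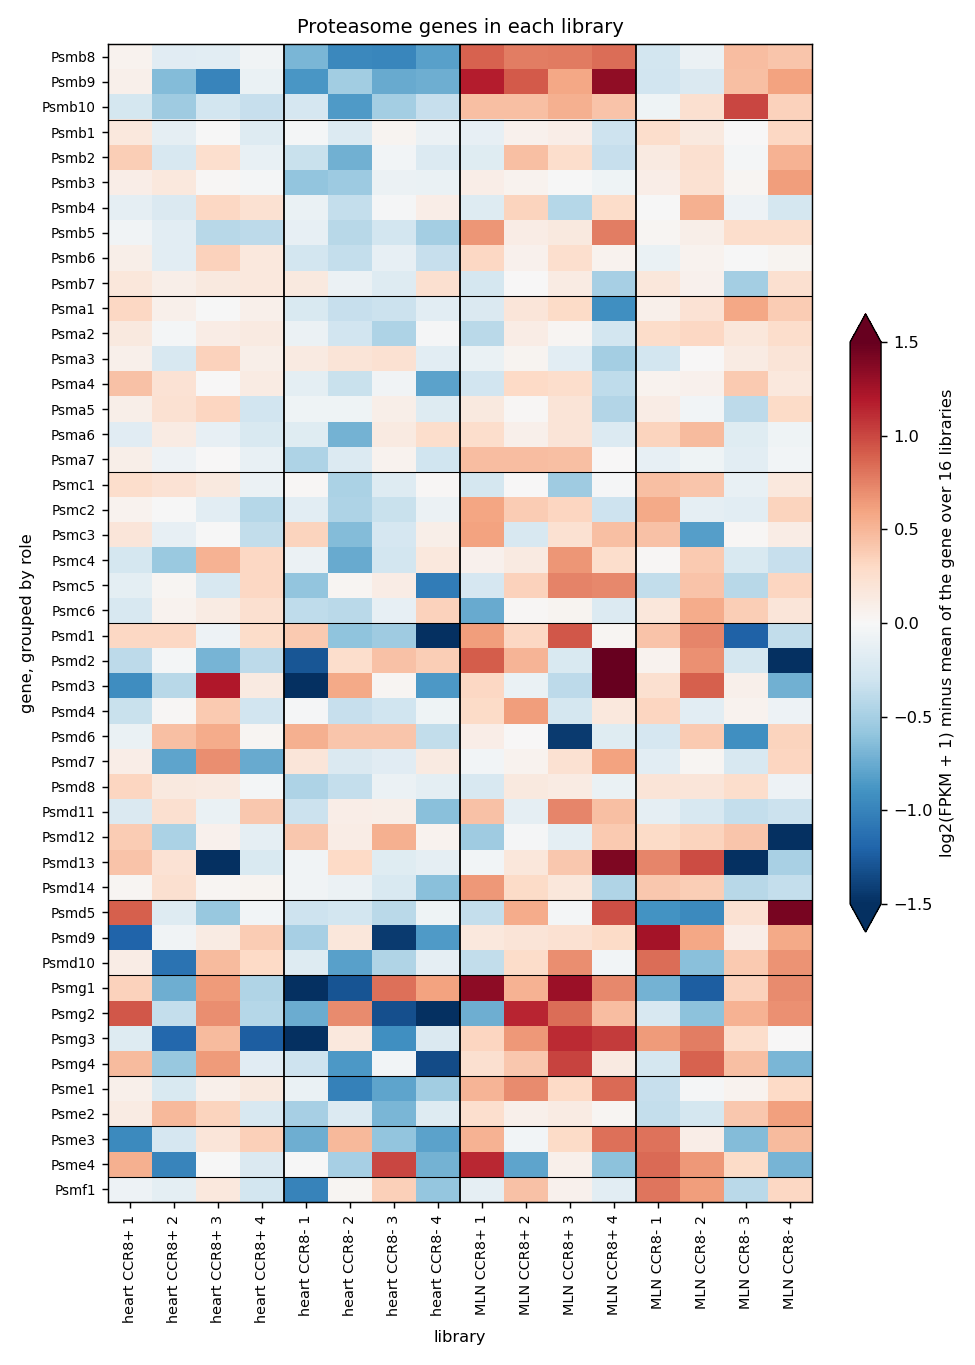
Proteasome genes in each of the 16 libraries, as log2(FPKM + 1) minus the mean of the gene over all libraries. Psma8, Psmb11, Psme2b and Psmc3ip are not drawn. Rows are grouped by role and columns by group; the colour scale ends at differences of 1.5 in either direction. The rows of Psmb8, Psmb9 and Psmb10 are red in MLN CCR8+ libraries and mostly blue in heart libraries, and the rows of Psmd and Psmg genes vary between libraries of 1 group.

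The first comparison set CCR8+ against CCR8- Tregs in the injured heart. Psmb8 was higher in CCR8+ cells by 0.78 ± 0.16 (SE), a ratio of 1.72, with an adjusted p = 0.0315 in limma. It was the 1 proteasome gene of 48 that passed, where 0.270% of all tested genes passed as higher, 0.0964% as lower and 0.366% in either direction. Psmb9 differed by 0.30 (95% interval -0.22 to 0.82, adjusted p = 0.706) and Psmb10 by 0.14 (-0.30 to 0.57, adjusted p = 0.869), which is within the spread of libraries. Psme1 was 0.63 higher (adjusted p = 0.192) and Psme2 0.57 higher (adjusted p = 0.278), and neither passed.

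Small positive differences ran through the other subunits in the heart. Of the 48 genes 41 had a difference above 0, with a median of 0.28, against a median of 1e-04 over all genes tested. Constitutive 20S subunits had a median of 0.18, 19S subunits of 0.19 and 20S chaperones of 0.69, with 0 calls among them. For all 14 constitutive 20S subunits the 95% interval of the difference stayed within 2-fold, as it did for 30 of the 48 genes. In 6 genes (Psma1, Psma4, Psmb3, Psmb8, Psmd8 and Psmd14) all CCR8+ libraries lay above all CCR8- libraries, against 3.45% of all genes, and in 0 they lay below, against 3.53%.

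The Psmb8 call in the heart was close to the threshold. Over the alternative settings its difference stayed between 0.72 and 0.84, and the call held in 13 of 25. The call was lost without any 1 of the heart CCR8+ libraries or without replicate 2, 3 or 4 of heart CCR8- (adjusted p from 0.0542 to 0.131 in limma), and without replicate 2 of MLN CCR8+ (0.0506). The mean over heart CCR8+ libraries was 2.75 for fibroblast, 3.60 for macrophage and 1.69 for endothelial markers, against 3.72, 3.70 and 3.37 over heart CCR8- libraries. With a covariate for these markers, an alternative chosen after seeing the data, the difference was 0.72 and did not pass (adjusted p = 0.112 in limma). Without the library highest in macrophage markers and the one highest in endothelial markers, likewise chosen after seeing the data, the difference was 0.77 (adjusted p = 0.137).

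In the MLN, Psmb8 was higher in CCR8+ than in CCR8- Tregs by 0.69 ± 0.16 (SE), a ratio of 1.61, with an adjusted p = 0.0147 in limma. It was again 1 of 48, where 2.04% of all genes passed as higher, 2.09% as lower and 4.14% in either direction. Psmb9 was 0.87 higher but just missed the threshold (adjusted p = 0.0546; 0.0352 with median-of-ratios factors), and Psme1 was 0.59 higher (adjusted p = 0.0871). Psmb10 differed by 0.09 (95% interval -0.35 to 0.53) and Psme2 by 0.02 (-0.40 to 0.44).

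The constitutive core did not share this direction in the MLN. Its 14 subunits had a median difference of -0.16, with 3 above 0 and 11 below, and with median-of-ratios factors 6 were above and 8 below. The 17 subunits of the 19S particle had a median of 0.22, the 20S chaperones of 0.36, all 48 genes of 0.13 and all genes tested of -0.04. Psma7, Psmb8 and Psmd11 had all CCR8+ libraries above all CCR8- libraries, against 4.62% of all genes, and Psma2 and Psmc6 had all below, against 5.54%. The Psmb8 call was lost without replicate 1 or replicate 2 of MLN CCR8- (adjusted p = 0.0522 in limma for each) and with only these 2 groups in the fit (0.0564). The mean of 5 B cell markers was 3.54 for MLN CCR8+ and 1.62 for MLN CCR8- libraries. That of 8 macrophage markers ran from 1.12 to 1.49 over MLN CCR8+ and from 0.37 to 0.81 over MLN CCR8- libraries. For 6 dendritic cell markers the means were 1.37 and 0.48, and libraries overlapped. Means were lower in MLN CCR8+ for fibroblast (0.11 and 0.16), endothelial (0.67 and 0.82) and cardiomyocyte markers (0.0009 and 0.17). The part of B cell, dendritic cell or macrophage markers alone in the result was not tested.

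No proteasome gene passed the test of whether the CCR8 difference itself differed between heart and MLN. In limma 0 of 48 passed, where 0.405% of all genes did (0.289% above 0 and 0.116% below), and 7 of the 48 had an unadjusted p under 0.05 (4 with median-of-ratios factors), against 1274 of all 10369 genes. For Psmb8 the difference in heart minus that in MLN was 0.09 (95% interval -0.37 to 0.55). For Psmb9 it was -0.56 (-1.29 to 0.17).

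**Figure D3:**
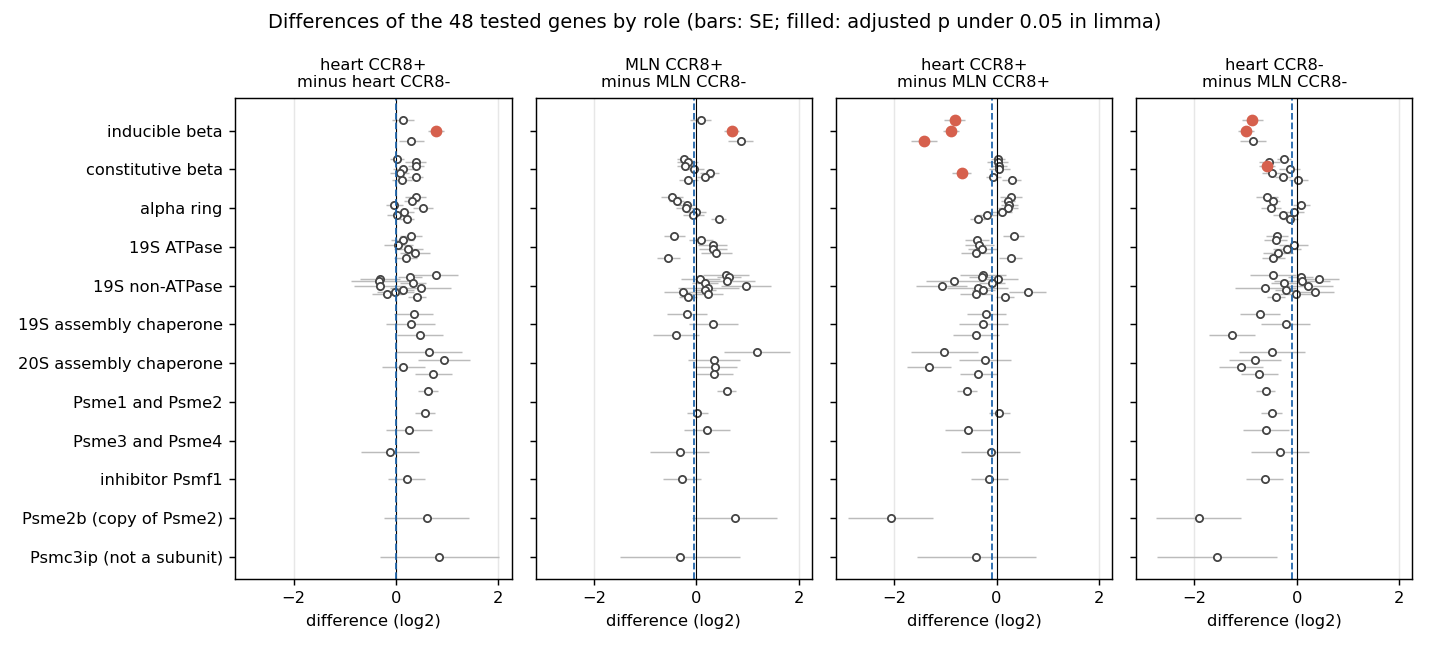
Difference of each of the 48 tested genes in the 4 comparisons, in rows by role, as log2 units with SE; filled points passed an adjusted p of 0.05 in limma and the dashed line is the median of all genes tested. The 3 inducible subunits lie left of most constitutive ones in heart CCR8+ against MLN CCR8+, and Psmb8 is the filled point in both CCR8 comparisons.

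Between tissues, CCR8+ Tregs of the heart had less of all 3 inducible subunits than those of the MLN. Psmb9 was lower by 1.42 on the log2 scale (difference -1.42 ± 0.25 SE, a ratio of 0.374, adjusted p = 9.44e-04 in limma). The difference of Psmb8 was -0.90 ± 0.16 (adjusted p = 8.96e-04) and that of Psmb10 was -0.82 ± 0.21 (adjusted p = 0.0160). Psmb5, the constitutive beta5 subunit, was the fourth gene called, at -0.68 ± 0.19 (adjusted p = 0.0236). These 4 of 48 compare with 3.97% of all genes called lower, 5.82% called higher and 9.79% called in either direction.

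The partners at the other 2 catalytic positions did not pass. Psmb6 differed by -0.06 (95% interval -0.38 to 0.26) and Psmb7 by 0.30 (-0.10 to 0.69). Constitutive 20S subunits had a median of 0.05 with 10 of 14 above 0, and for 13 of the 14 the interval stayed within 2-fold. The inducible subunits had a median of -0.90, the 19S subunits of -0.28 and all genes tested of -0.08. Psme1 was 0.57 lower in heart CCR8+ cells and fell just short (difference -0.57, adjusted p = 0.0590), and Psme2 differed by 0.06 (-0.36 to 0.48). In 6 genes (Psmb5, Psmb8, Psmb9, Psmb10, Psme1 and Psme2b) all heart CCR8+ libraries lay below all MLN CCR8+ libraries, against 8.13% of all genes, and in 0 they lay above, against 9.71%.

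In CCR8- Tregs the same 2 tissues were compared in separate libraries. Psmb8 was lower in heart than in MLN at -0.99 ± 0.16 (adjusted p = 8.56e-04 in limma) and Psmb10 at -0.87 ± 0.21 (adjusted p = 0.0217). Psmb9 had a difference of -0.86 (adjusted p = 0.0533), with the 4 heart libraries below the 4 MLN libraries. Psmb3, a constitutive beta subunit without a cutting site, was called at -0.58 ± 0.15 (adjusted p = 0.0382). It read 8.92, 8.97, 9.42 and 9.42 for heart CCR8- libraries, against 9.61, 9.74, 9.55 and 10.14 for MLN CCR8- libraries. These 3 of 48 compare with 1.61% of all genes called lower, 2.95% called higher and 4.56% in either direction.

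Most other proteasome genes had differences below 0 in CCR8- cells without passing the test. Of the 48 genes 41 were below 0, with a median of -0.44, against -0.10 over all genes tested. Constitutive 20S subunits had a median of -0.27 with 12 of 14 below 0, and Psmb3 alone among them passed. With median-of-ratios factors their median was -0.15, 0 of the 14 passed, and Psmb8 was the 1 proteasome gene called. Inducible subunits had a median of -0.87. In 11 genes all heart libraries lay below all MLN libraries, against 4.70% of all genes, and 7 of these 11 were constitutive 20S subunits (Psma1, Psma2, Psma4, Psmb2, Psmb3, Psmb5 and Psmb6). In 0 of 48 they all lay above, against 5.24%. The CCR8 and tissue comparisons share groups, as heart CCR8- libraries enter this one and the heart CCR8 comparison, so their values are not independent.

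The tissue calls held under most settings and were lost with a marker covariate. The Psmb8 call held in 24 of 25 alternatives in each CCR8 class, and Psmb9 did in CCR8+ cells. With a covariate for fibroblast, macrophage and endothelial markers, a setting chosen after seeing the data, none of the 7 tissue calls of proteasome genes passed, while the differences kept their direction. For Psmb8 the difference was then -0.78 in CCR8+ cells (adjusted p = 0.0521 in limma) and -0.80 in CCR8- cells (0.389). For Psmb9 in CCR8+ cells it was -1.17 (adjusted p = 0.0651 in limma), and for Psmb10 it was -0.77 in CCR8+ and -0.79 in CCR8- cells. That covariate ran from 0.83 to 3.78 over heart CCR8+, from 2.70 to 5.30 over heart CCR8-, from 0.60 to 0.81 over MLN CCR8+ and from 0.48 to 0.54 over MLN CCR8- libraries, so that it and the tissue largely cannot be told apart. The summed fibroblast markers (log2) ran from 3.88 to 7.76 in heart CCR8+ and from 5.94 to 8.16 in heart CCR8- libraries, against 0 to 2.47 for MLN CCR8+ and 0.07 to 1.93 for MLN CCR8- libraries. Lum was at 0 in all MLN libraries and Col1a1, Col3a1 and Postn in all MLN CCR8+ libraries; of the endothelial genes Cdh5 was at 0 in all MLN libraries, and of the macrophage genes Adgre1 was. Other genes of these lists were not at 0 in the MLN or overlapped between tissues. Pdgfra, a fibroblast marker, was at 0 in all 8 heart libraries and above 0 in 1 MLN CCR8+ and 2 MLN CCR8- libraries. Pecam1, an endothelial marker, ran from 3.63 to 4.61 over heart CCR8+ and from 4.24 to 7.24 over heart CCR8- libraries, against 2.99 to 4.59 over MLN CCR8+ and 3.36 to 5.37 over MLN CCR8-. Lyz2, of the macrophage list, averaged 6.47 over heart CCR8+ and 8.16 over heart CCR8-, against 5.86 over MLN CCR8+ and 1.89 over MLN CCR8- libraries. B cell markers moved the other way, with a mean of 1.06 over heart CCR8+ (at most 1.65), against 3.54 over MLN CCR8+ libraries (at least 2.23), and of 0.51 over heart CCR8-, against 1.62 over MLN CCR8- libraries. The part of B cell markers in the tissue results was not tested.

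Replicate 1 of heart CCR8+ had the fewest such transcripts of the heart libraries, with a covariate of 0.83, close to the 0.81 of the highest MLN library. In it Psmb8 read 9.68, Psmb9 8.74 and Psmb10 7.60, each below all 4 MLN CCR8+ libraries. Of the heart libraries it also had the highest Psmb8 and Psmb9. Its mean of the 3 inducible subunits was 8.67, against 8.27, 8.25 and 8.55 in replicates 2, 3 and 4 of heart CCR8+. Heart CCR8- libraries reached at most 8.12. How these levels go with the markers within the heart was not tested. Psmb10 in CCR8+ cells lost its call without replicate 2 of heart CCR8+ (adjusted p = 0.0549 in limma), and in CCR8- cells without replicate 2 of heart CCR8- (0.0665) or replicate 3 (0.0772) or 4 (0.0501) of MLN CCR8-. Psmb5 lost its call without replicate 3 (0.0714) or 4 (0.0641) of heart CCR8+ or replicate 1 (0.0815) or 4 (0.0874) of MLN CCR8+. Psmb3 lost it without replicate 3 of heart CCR8+ (0.0502), replicate 1 (0.104) or 2 (0.105) of heart CCR8-, or replicate 2 (0.0667) or 4 (0.124) of MLN CCR8-.

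**Figure D4:**
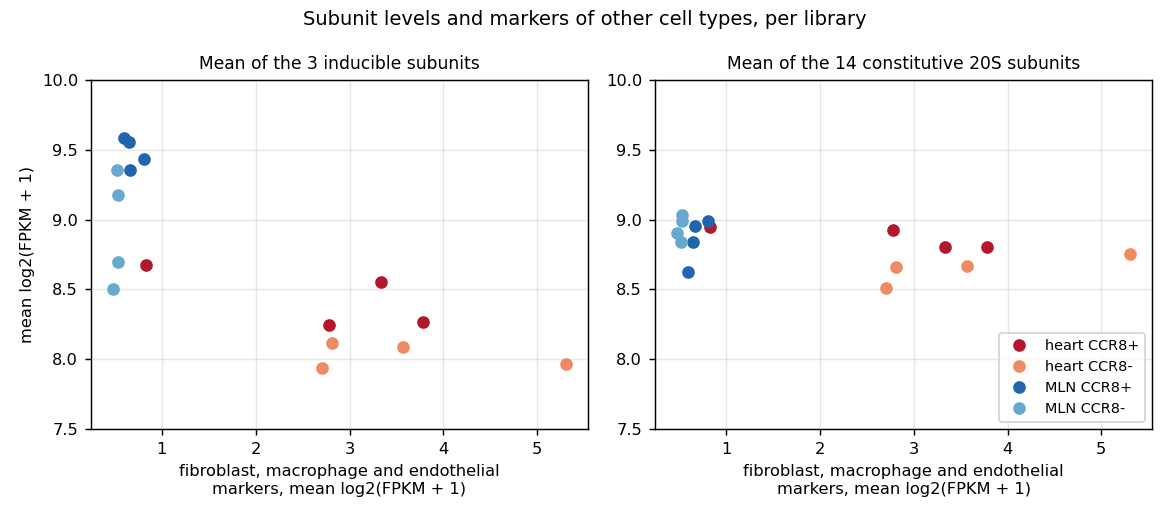
Mean level of the 3 inducible subunits (left) and of the 14 constitutive 20S subunits (right), as log2(FPKM + 1), against the mean of fibroblast, macrophage and endothelial markers; 1 point per library, coloured by group. All heart libraries lie to the right of the MLN libraries, the nearest being 1 heart CCR8+ library at 0.83. Its inducible mean of 8.67 is below those of the MLN CCR8+ libraries, which begin at 9.35, and is the highest of the heart libraries.

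Set against its partner at the same catalytic position, each inducible transcript made up a different part of the pair. At beta5, Psmb8 was 76.5 ± 1.9% of Psmb8 plus Psmb5 FPKM for heart CCR8+, 66.7 ± 2.5% for heart CCR8-, 79.0 ± 3.4% for MLN CCR8+ and 73.8 ± 3.4% for MLN CCR8- libraries (SD, n = 4 each). At beta1, Psmb9 was 45.2 ± 9.6% of the pair with Psmb6 for heart CCR8+, 46.4 ± 3.7% for heart CCR8-, 67.6 ± 5.9% for MLN CCR8+ and 56.4 ± 7.4% for MLN CCR8-. At beta2, Psmb10 was 31.7 ± 1.4% of the pair with Psmb7 for heart CCR8+, 31.4 ± 2.9% for heart CCR8-, 50.2 ± 4.2% for MLN CCR8+ and 46.0 ± 13.0% for MLN CCR8-. Psmb8 was the larger transcript of its pair in all 16 libraries and Psmb10 the smaller one in all 8 heart libraries. These are shares of transcripts and not of assembled particles.

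**Figure D5:**
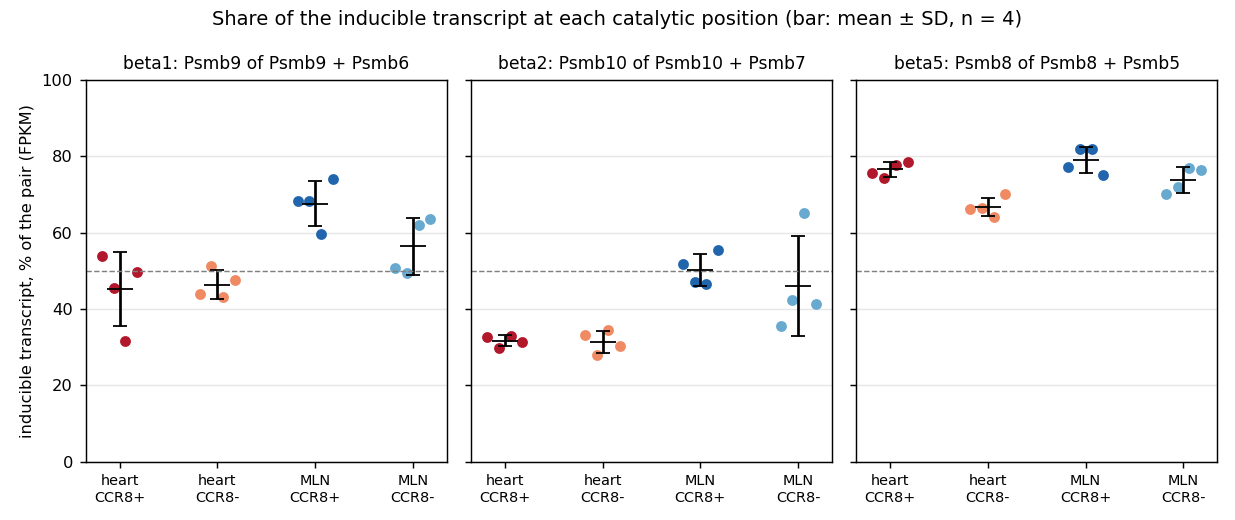
Share of the inducible transcript in each catalytic pair, in percent of the summed FPKM, with 1 point per library and the mean ± SD of 4; the dashed line is at 50%. Heart libraries of both CCR8 classes lie between 27.9 and 34.4% at beta2, below every MLN library, and at beta5 the heart CCR8+ libraries (74.3 to 78.6%) all lie above the heart CCR8- libraries, which begin at 64.0%.

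The difference of inducible minus constitutive level was compared between groups in 12 tests, 4 for each pair. With 4 against 4 libraries the smallest p an exact permutation test can give is 0.0286. Groups did not overlap in 5 of the 12, each at that p in the two-sided exact permutation test and at 0.0686 after adjustment over the 12. Psmb8 over Psmb5 was higher in heart CCR8+ than in heart CCR8- by 0.70 and lower in heart CCR8- than in MLN CCR8- (-0.50). Psmb9 over Psmb6 was lower in heart CCR8+ than in MLN CCR8+ (-1.36). Psmb10 over Psmb7 was lower in heart than in MLN among CCR8+ (-1.12) and among CCR8- Tregs (-0.90). None passed the adjusted threshold of 0.05. The other 7 overlapped, with exact permutation p from 0.0857 to 0.914. Among them Psmb8 over Psmb5 in heart CCR8+ against MLN CCR8+ was -0.22, as Psmb8 and Psmb5 were both lower in heart, and Psmb10 over Psmb7 in heart CCR8+ against heart CCR8- was 0.02.

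The 4 lists of genes that work with the proteasome were read from the same fit. Of the partners and regulators, 14 were tested and 1 was called in any comparison: Pomp, the chaperone that matures the 20S core, was lower in heart CCR8- than in MLN CCR8- (-0.65, adjusted p = 0.0498 in limma), a call that held in 3 of 25 alternatives. Among 12 genes of MHC class I antigen processing, Tap1 (-2.18, adjusted p = 0.00522) and Tap2 (-1.94, adjusted p = 0.0246), which carry peptides into the endoplasmic reticulum, were lower in heart CCR8+ than in MLN CCR8+ cells. The Tap2 call held in 19 of 25 alternatives and was lost without replicate 1 or 3 of heart CCR8+ or replicate 1 or 4 of MLN CCR8+ (adjusted p from 0.0515 to 0.0977 in limma; -1.35 without the last). Tap1 read 3.48, 3.65, 4.06 and 3.53 for heart CCR8+, against 6.43, 4.76, 5.02 and 7.25 for MLN CCR8+ libraries. The median of the 12 was -0.41 there, against -0.08 for all genes. In CCR8- cells the same comparison called 0 of the 12 (0 with an unadjusted p under 0.05), and Tap1 differed by 0.22. Tap1 and Psmb9 share their start region, yet in heart CCR8+ against heart CCR8- the difference of Tap1 was -1.14 (adjusted p = 0.359) and that of Psmb9 was 0.30, neither of which passed.

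B2m, the light chain of MHC class I, went the other way. It was higher in heart CCR8+ than in MLN CCR8+ (0.75, adjusted p = 2.26e-04 in limma) and lower in CCR8+ than in CCR8- cells of the MLN (-0.52, adjusted p = 0.0107). B2m is among the top ranks that the deposited normalization makes equal in all libraries, and it read 14.60 in all 4 heart CCR8+ libraries, against 13.71, 14.30, 13.71 and 13.71 for MLN CCR8+ libraries, so its values are places in a fixed order.

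Of 9 interferon gamma pathway genes, those called in the fit reported here were upstream parts. Jak2, a kinase of the receptor, was higher in heart CCR8+ than in MLN CCR8+ (3.29, adjusted p = 6.73e-06 in limma) and in heart CCR8- than in MLN CCR8- (1.94, adjusted p = 0.00280), and lower in CCR8+ than in CCR8- cells of the MLN (-1.86, adjusted p = 0.00502). Ifngr1, a chain of the receptor, was higher in heart CCR8+ than in MLN CCR8+ (2.21, adjusted p = 0.00992). Irf1, a transcription factor of the pathway, passed in no comparison, and in heart CCR8+ against MLN CCR8+ it differed by 0.41. In heart CCR8+ against MLN CCR8+, then, the 3 inducible subunits were lower while Jak2 and Ifngr1 were higher.

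Among 5 genes of ubiquitin and its activating enzyme, Ubb, which encodes chains of ubiquitin, was higher in heart CCR8+ than in MLN CCR8+ (0.88, adjusted p = 5.65e-05 in limma) and in heart CCR8- than in MLN CCR8- (0.60, adjusted p = 0.00441), and lower in CCR8+ than in CCR8- cells of the MLN (-0.44, adjusted p = 0.0337). The last of these calls held in 16 of 25 alternatives: it was lost with median-of-ratios factors (-0.32, adjusted p = 0.158) and without replicate 1, 3 or 4 of MLN CCR8+ or replicate 1 or 4 of MLN CCR8- (adjusted p from 0.0659 to 0.123 in limma). Uba1, the activating enzyme, was lower in heart CCR8+ than in MLN CCR8+ (-1.88, adjusted p = 0.0261), a call that held in 19 of 25 alternatives and was lost without replicate 1 or 3 of heart CCR8+ or replicate 1 or 4 of MLN CCR8+ (adjusted p from 0.0697 to 0.107 in limma). The reads of Ubb could have been assigned with uncertainty, since its coding sequence is repeated. Like B2m, Ubb took values shared between libraries. It read 13.01 in replicate 4 of heart CCR8+ and in replicates 1 and 2 of heart CCR8-, and 12.94 in replicate 3 of both heart groups. Its differences can likewise be steps between places in a fixed order. In the heart CCR8 comparison 0 genes of the 4 lists passed in limma, with 6 of 40 at an unadjusted p under 0.05, against 1156 of all 10369 genes.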

How the data were processed

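RNA of 16 libraries was measured, 4 in each of 4 groups taken from the sample titles. Per the labels' protocols, libraries were made with an NEBNext Ultra RNA kit. Per the submitters' processing notes, the tools were HISAT2 2.0.5 and featureCounts 1.5.0-p3 and the build mm10 (GRCm38). The deposited values are on a log2 scale and were taken to be log2(FPKM + 1) that the authors had quantile normalized, since all libraries share their maximum (14.9) and their 74 highest ranks and sum, once unlogged, to 1007908 to 1007934. The columns are named FPKM, but such sums are also what TPM would give, and the labels name neither the log nor the quantile step. The test had been planned for FPKM without a log, and on log2(FPKM + 1) it is the same. Read numbers are unknown, so that neither depth nor counting error can be given; libraries had 10691 to 12704 genes above 0.

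Of 19219 rows, 24 with dates in place of names were left out. All libraries entered 1 limma 3.58.1 fit (R 4.3.3) with group means and a variance trend, over 10369 genes with an FPKM of at least 1 in at least 4 libraries (residual df 12, prior df 7.01). Calls are two-sided Benjamini-Hochberg adjusted p-values under 0.05 over all genes tested. The procedure was tested on simulated data. Catalytic pairs were compared by exact permutation of 70 arrangements. Promoter windows and coordinates are from RefSeq (GRCm38.p6) and GENCODE vM21.

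Values in every library are given for Psmb8, Psmb9, Psmb10, Psmb5, Psmb6, Psmb7, Psme1 and Psme2, other proteasome genes are named where called or where groups did not overlap, and genes of the 4 lists where called (at most 4 per list and comparison). Irf1 and examples of values not called were chosen after the values were seen, and some genes of the lists are not reported here. The members and lists were chosen with earlier results of these data known. Alternatives were no filter, a filter at an FPKM of 5, 0.1 as pseudocount, median-of-ratios factors, array weights, a replicate block, a fit of the 2 groups alone and leaving out each library.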

Additional observations from a re-analysis of the deposited data

Results flagged for a closer look

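Among 84 sets of 4 libraries checked for 1 library far from the other 3, 4 were found, and chance gives about 1 in 20. All 4 concern markers of other cells, as mean log2(FPKM + 1) of a list: 1 MLN CCR8+ library reached 0.421 for fibroblast markers, 1 heart CCR8- library 7.01 for endothelial markers, 1 MLN CCR8+ library 0.00360 for cardiomyocyte markers with the other 3 at 0, and 1 MLN CCR8- library 0.669 for cardiomyocyte markers with the other 3 at 0. None was a proteasome gene or a catalytic pair.

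The CCR8 difference of B2m was larger in heart than in MLN by 0.75 on the log2 scale (interaction in limma, adjusted p = 0.0398). That call held in 5 of 24 alternatives, with adjusted p from 6.19e-04 to 0.275, and B2m values are places in a fixed order, as given above.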

How the results depend on the processing

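No called value changed sign under any alternative run. Of proteasome genes called, heart CCR8+ against CCR8- had 1, and 0 with no filter, with a replicate block, without 2 libraries high in other-cell markers, or with the marker covariate (both of these chosen after seeing the data); all genes called were 38, against 14, 20, 11 and 17, and 15 with only the 2 groups compared. MLN CCR8+ against CCR8- had 1, 2 at an FPKM of 5, 3 with median-of-ratios factors, and 0 with only the 2 groups, where all genes went to 263 of 429. Heart CCR8+ against MLN CCR8+ had 4, 7 with only the 2 groups and 0 with the covariate (all genes 372 of 1015). Heart CCR8- against MLN CCR8- had 3, 1 with median-of-ratios factors, 1 with only the 2 groups and 0 with the covariate; all genes were 473, against 265 with no filter, 273 with 2 groups and 5 with the covariate. The interaction had 42 genes, and 14 with no filter. The cause was not tested. With median-of-ratios factors the split of all genes called higher and lower was 273 and 174 in MLN CCR8+ against CCR8- (212 and 217 as reported), and 355 and 120 for CCR8- cells of heart against MLN (306 and 167).

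Leaving out each library gave, in the order used above, 0 to 1, 0 to 2, 3 to 6, 1 to 6 and (interaction) 0 proteasome genes, and 3 to 52, 273 to 469, 696 to 1115, 266 to 483 and 28 to 62 of all genes. For the pairs it gave, in the same order of comparisons, -0.25 to 0.19, 0.55 to 0.86, -1.53 to -1.09 and -0.72 to -0.44 for Psmb9 over Psmb6, -0.0587 to 0.0865, 0.03 to 0.61, -1.19 to -1.02 and -1.11 to -0.52 for Psmb10 over Psmb7, and 0.65 to 0.78, 0.33 to 0.53, -0.33 to -0.13 and -0.59 to -0.42 for Psmb8 over Psmb5. Libraries with the same replicate number were not taken as pairs: their deviations correlated by -0.0933 to 0.0589 over 24 pairs, and 4 of 16 libraries correlated best with their own number. With the replicate block, the adjusted p in limma was 0.0617 for Psmb8 (CCR8+ against CCR8- in heart) and 0.0525 for Psmb3 (heart against MLN, CCR8-). Genes of low level, such as Psmg and several Psmd genes, had intervals wider than 2-fold, so smaller differences were not detectable.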

Other observations

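Within MLN CCR8-, the libraries fell into a lower and a higher pair for Psmb8, Psmb9 and Psme2, which interferon gamma is known to induce, a pattern noticed after the values were seen and given here as values only. Replicates 1 and 2 read 9.35 and 9.54 for Psmb8, 8.38 and 8.45 for Psmb9, and 9.70 and 9.79 for Psme2. Replicates 3 and 4 read 10.09 and 10.05 for Psmb8, 9.12 and 9.27 for Psmb9, and 10.46 and 10.67 for Psme2. Ifngr1 was ordered the other way, at 9.88 and 9.97 in replicates 1 and 2 and at 7.45 and 6.77 in replicates 3 and 4. Other genes that interferon gamma is known to induce did not follow this order: Irf1, Tap1, Tap2, Tapbp and Nlrc5 did not fall into these pairs, H2-K1 differed little (10.96 and 11.01 in replicates 1 and 2, 11.05 and 11.03 in replicates 3 and 4), and H2-D1 ran the other way (10.86 and 10.92, then 10.31 and 10.06). Psmb7 did not follow it either. In these libraries the mean of 5 B cell markers was 1.44, 3.35, 1.22 and 0.46, and that of 10 general T cell markers was 8.52, 8.29, 8.31 and 8.48; their part in it was not tested.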
